A study of Mus musculus with 10 samples.

Results

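The insulin-like growth factor (IGF) binding proteins, the acid-labile subunit gene Igfals and the growth factor gene Igf1 were examined in livers of mice without a working Scd1 gene. Every probe set (the unit of an Affymetrix array, which reports 1 value from a group of short oligonucleotides) whose platform annotation named 1 of 8 gene symbols was taken. The symbols were Igfbp1, Igfbp2, Igfbp3, Igfbp4, Igfbp5, Igfbp6, Igfals and Igf1. Of these, 7 had at least 1 probe set of their own, which gave 12 probe sets of 9977 on the array, and 7 genes of 7417. Igfbp5 was read only by 1 probe set annotated to it and to Tmem119 together, and was left out. The rule took the genes by name.

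Each array held liver RNA of 1 female mouse. The 10 mice were 6 weeks old, ate chow and were non-fasted. Of these, 5 were SCD1 -/- (Scd1-null), with a genetic background that mixed 129 and C57BL/6J, and 5 were SCD1 +/+ (wild type) on C57BL/6J. Scd1 encodes stearoyl-CoA desaturase, which makes monounsaturated fatty acids from saturated ones, and the study asked which liver transcripts differ when it is missing. The sources used here do not give which part of Scd1 was disrupted. Genotype, genetic background and chip lot split the 10 arrays identically, so they cannot be told apart.

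IGF-I circulates mostly bound. The liver secretes most of it under the control of growth hormone, and binding proteins carry it, lengthen its life in blood and limit how much reaches its receptor. Igfbp3 encodes the main carrier, which joins IGF-I and the acid-labile subunit in a ternary complex. Igfbp1 encodes a small carrier made by hepatocytes whose transcription insulin suppresses within minutes to hours, through forkhead factors of the FOXO family that bind an insulin response sequence near the start of the gene, so its transcript rises in fasting and falls after feeding.

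The upstream windows of Igfbp1 and of Igfbp3, its neighbour on chromosome 11, are shown because these genes lie side by side and gave different values here. They are the 250 bases before the annotated start, read 5′ to 3′ on the gene's strand, from RefSeq on build GRCm38.p6. Igfbp1 is at chr11:7197537-7197786 on the plus strand and Igfbp3 at chr11:7213924-7214173 on the minus strand. Capitals mark 3 motifs, each searched on both strands. The first is CAAAACA, one core of the insulin response sequence. The second is its other core, CAAAATA, which on the opposite strand is spelled TATTTTG. The last is a core of the site of HNF1, a hepatocyte transcription factor, spelled GTTAAT and, on the opposite strand, ATTAAC.
Igfbp1: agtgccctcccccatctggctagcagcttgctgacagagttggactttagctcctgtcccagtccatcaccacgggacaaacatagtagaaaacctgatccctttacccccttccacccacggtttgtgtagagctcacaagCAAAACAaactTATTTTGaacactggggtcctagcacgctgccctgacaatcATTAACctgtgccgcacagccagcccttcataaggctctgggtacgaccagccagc
Igfbp3: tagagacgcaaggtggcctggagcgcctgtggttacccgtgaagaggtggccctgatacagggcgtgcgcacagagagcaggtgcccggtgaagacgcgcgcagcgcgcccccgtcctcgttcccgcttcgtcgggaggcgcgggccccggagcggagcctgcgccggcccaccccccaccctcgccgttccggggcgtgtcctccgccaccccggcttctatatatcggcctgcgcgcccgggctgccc
The motif letters were chosen after the Igfbp1 window had been read, so their presence there is a description. Counted from the start, CAAAACA lay at -108 to -102, TATTTTG at -97 to -91 and ATTAAC at -56 to -51, with no overlap between them. The Igfbp3 window held none of these letters, and its GC content was 73.2% against 53.2% for Igfbp1. Among 11 windows of the 8 genes, 1, that of Igfbp1, held an insulin response core in these letters. Over 32851 windows of the same length, 5.56% held the first core, 3.95% the second, 6.43% the HNF1 core and 0.381% (125 windows) both insulin response cores. All 3 motifs stood together in 0.0609% (20 windows). A match is no evidence of binding, and a window without one says nothing of the factor.

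Values are intensities, quantile normalized across the 10 arrays, and differences are log2 of Scd1-null over wild type. A probe set was called when limma's adjusted p was under 0.05, and 479 of 7569 tested probe sets (6.33%) were called, of which 270 (3.57%) were higher and 209 (2.76%) lower in the null. Without normalization between arrays, 83.3% of the calls were higher in the null, against 56.4% as reported. Scd1 itself separated the genotypes: at the brightest of 3 Scd1 probe sets, null arrays read 90 to 919 and wild-type arrays 13374 to 20300 (adjusted p = 4.31e-08). Another, 94058_r_at, read 330 to 420 and 269 to 426, close to the floor of 351 set before taking log2. From the hybridisation times the arrays fell into 3 fluidics runs. Run 1 held null 1 to 4, run 2 held null 5 with wild type 1 to 3, and run 3 held wild type 4 and 5. For wild type 3, a settings file noted that evaporation had left its cRNA amount uncertain. Hepatocyte markers had summed intensities of 158664 to 176142 in null and 161359 to 180797 in wild-type arrays over 11 tested genes. Limma called 0 of them (1 at an unadjusted p under 0.05). Most of these genes were bright, but Ass1 averaged only 9.87 in null and 9.90 in wild-type arrays on the log2 scale. Apoa2, another marker, lay below the floor on every array (150 to 306).

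Among the 12 probe sets, 1 rose, 1 fell and 10 were not called, beside the 3.57% and 2.76% of all tested probe sets. Both calls fell on Igfbp1, at probe sets that moved in opposite directions. All 12 passed the filter on dim probe sets in both groups, and 0 of their readings lay at the floor. Their median difference was -0.03, against -0.02 over all tested probe sets, and their median absolute difference was 0.26 against 0.15. At an unadjusted p under 0.05 there were 3, beside 26% of all tested probe sets. The groups were fully apart at 1 of the 12, beside 8.13% of all tested probe sets. It was higher in the null, as 4.03% were, and 0 were lower without overlap, as 4.1% were.

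**Figure D1:**
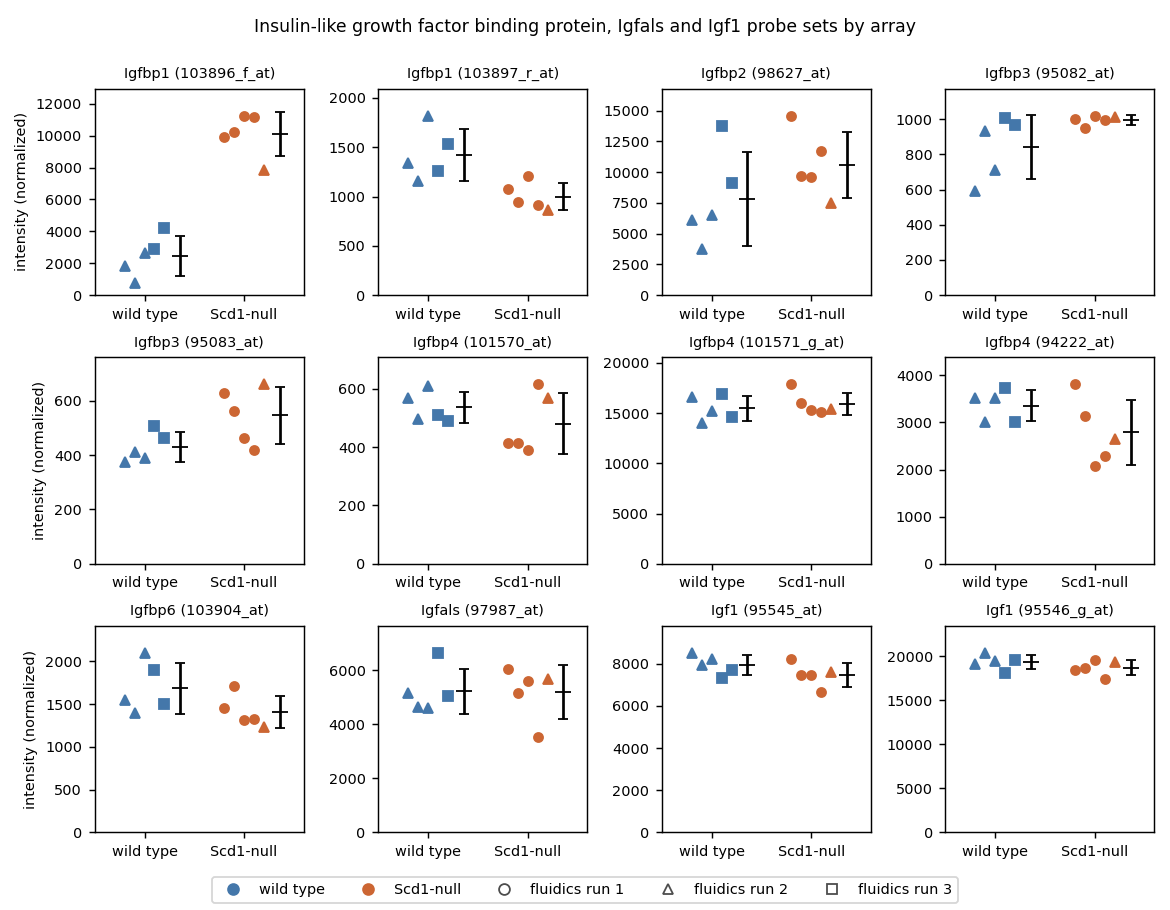
Normalized intensity (linear axis from 0) of each of the 12 probe sets on the 10 arrays, 1 point per mouse, coloured by genotype and shaped by fluidics run, with the mean and SD of 5 arrays beside each group. At Igfbp1 103896_f_at every null array lies above every wild-type array, and the groups overlap in the other 11 panels.

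**Figure D2:**
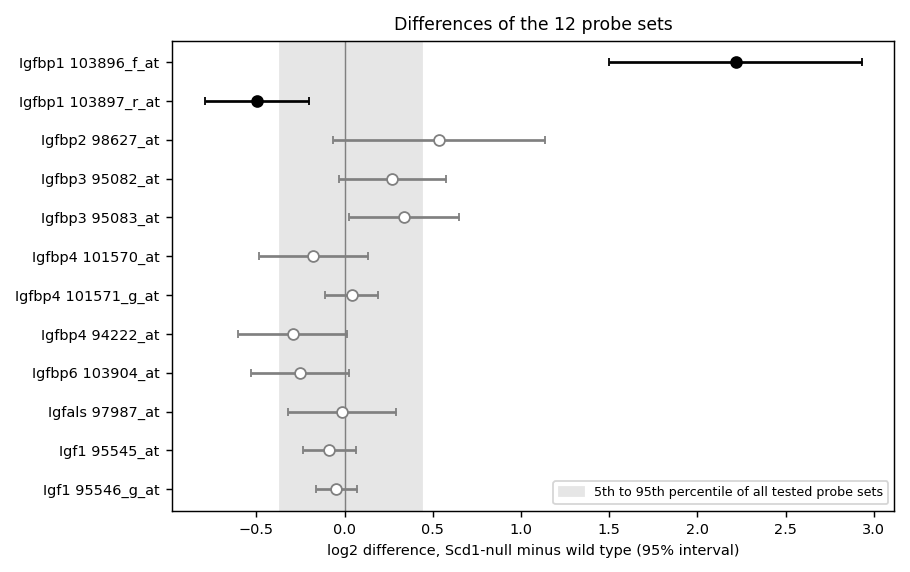
Log2 difference of Scd1-null minus wild type for the 12 probe sets, with 95% intervals from limma; filled points were called at an adjusted p under 0.05, and the grey band runs from the 5th to the 95th percentile of all tested probe sets (-0.37 to 0.44). The first Igfbp1 probe set lies at 2.22, the second at -0.50, and the open points were not called.

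Igfbp1 was the only one of these genes with a called difference. At probe set 103896_f_at, the null mice 1 to 5 read 9937, 10202, 11253, 11181 and 7831. The wild-type mice 1 to 5 read 1845, 786, 2655, 2864 and 4182. The lowest null array, null 5, was above the highest wild-type array, wild type 5, so the groups did not overlap. The means were 10081 ± 1386 in null and 2466 ± 1260 in wild type (SD, n = 5 each). The signal at this probe set rose by 2.22 on the log2 scale (SE 0.33, 95% interval 1.50 to 2.93), which is 4.65-fold (2.83 to 7.63), with an adjusted p of 0.00375 by limma. An exact two-sided permutation test over the arrays gave p = 0.00794, the smallest that 5 against 5 can give. None of the 7569 tested probe sets had a larger difference upward. In whole liver, a change in the number of cells of a type and a change of RNA per cell cannot be told apart.

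The wild-type mice spread far more at this probe set than the null mice. The highest wild-type array was 5.32 times the lowest, while the highest null array was 1.44 times the lowest. The SD on the log2 scale was 0.91 in wild type and 0.21 in null. This difference in spread is given as a description, without a test. Wild type 2, at 786, was the lowest array, and leaving it out gave a difference of 1.85 (adjusted p = 0.000479). Over the 10 fits that each left out 1 array, the difference ran from 1.85 to 2.46 and the adjusted p from 0.000479 to 0.0158.

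Only run 2 held both genotypes. In it, null 5 at 7831 was set against wild type 1 to 3, with a geometric mean of 1567, a difference of 2.32 that was not called (adjusted p = 0.275, with 1 null array). With run as a block over all arrays the difference was again 2.32, and the call was lost (adjusted p = 0.0787). That fit takes its contrast from the same 4 arrays. Run 1 null arrays had a geometric mean of 10627 and run 3 wild-type arrays one of 3461.

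The second Igfbp1 probe set, 103897_r_at, pointed the other way. The suffix _f marks a probe set that reads a family of similar sequences and _r one chosen under relaxed selection rules, in Affymetrix naming. The null mice 1 to 5 read 1079, 943, 1204, 909 and 862, and the wild-type mice 1338, 1154, 1820, 1255 and 1528. All 5 null arrays lay under the wild-type median of 1338, but the groups overlapped, since null 3 was above wild type 2. The means were 999 ± 140 in null and 1419 ± 263 in wild type (SD, n = 5 each). The signal fell by 0.50 on the log2 scale (SE 0.14, 95% interval -0.79 to -0.20), with an adjusted p of 0.0473 by limma and an exact permutation p of 0.0159.

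This lower call stood close to the threshold. It was kept in 9 of 24 alternative settings, while the higher call of 103896_f_at was kept in 22 of 24. It was lost on the deposited scale (-0.44, adjusted p = 0.0555), under cyclic loess (-0.48, adjusted p = 0.0514) and without null 1, 2, 4 or 5 or wild type 1, 3 or 5 (adjusted p = 0.0696 to 0.109). The sign was negative in all 24. With run as a block, and within run 2, it was -0.71 (adjusted p = 0.236 and 0.324).

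**Figure D3:**
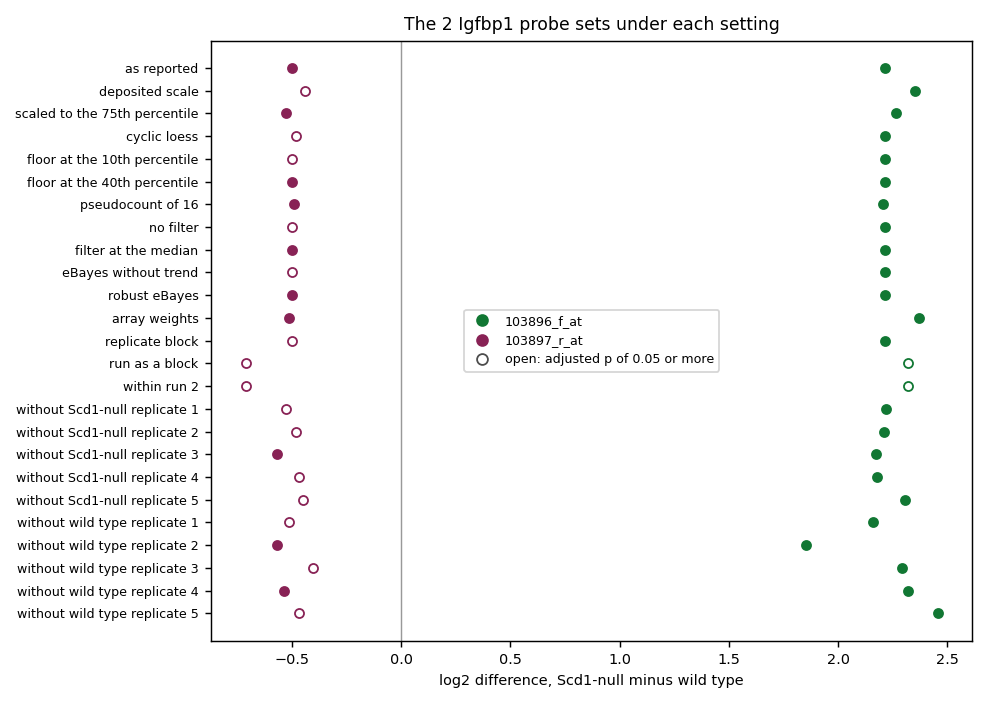
Log2 difference of Scd1-null minus wild type for the Igfbp1 probe sets as reported and under each alternative setting; filled points had an adjusted p under 0.05, open points did not. The first probe set stays between 1.85 and 2.46 and the second between -0.71 and -0.40.

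The Igfbp1 probe sets were also compared as a ratio within each array. Its group difference was 2.71 as reported, 2.79 on the deposited scale and after scaling to the 75th percentile, and 2.70 under cyclic loess. Probe sets differ in brightness for reasons other than transcript level, so only its change between groups was read. The ratio of 103896_f_at to 103897_r_at was 9.21, 10.8, 9.35, 12.3 and 9.08 in null mice 1 to 5. It was 1.38, 0.681, 1.46, 2.28 and 2.74 in wild-type mice 1 to 5. Every null array was above every wild-type array. The mean log2 ratio was 3.33 ± 0.19 in null and 0.62 ± 0.78 in wild type (SD, n = 5 each), a difference of 2.71 or 6.56-fold (exact permutation p = 0.00794). The probe sets changed unequally. Since 103896_f_at alone already separated the groups and 103897_r_at pointed the other way, this p is not independent of their own tests. Within groups their deviations from the group mean had r = 0.56 over 10 arrays, a description over readings that share their array. Which of the probe sets follows the Igfbp1 transcript was not tested.

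**Figure D4:**
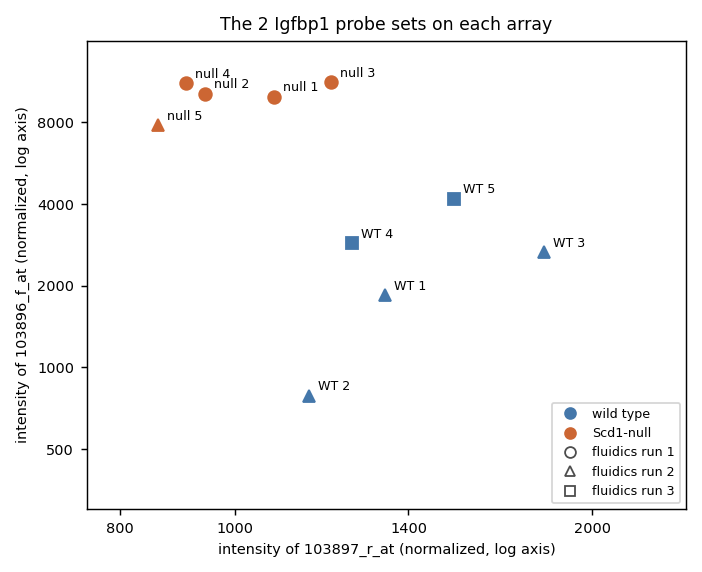
Normalized intensity of Igfbp1 103896_f_at (vertical) against 103897_r_at (horizontal) on each of the 10 arrays, both on log axes, coloured by genotype and shaped by fluidics run. The 5 null arrays sit at the upper left, between 7831 and 11253 vertically and between 862 and 1204 horizontally, and the wild-type arrays spread from 786 to 4182 and from 1154 to 1820.

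Markers of other liver cells were read beside these calls. Summed over 4 lymphocyte genes, null arrays read 12011 to 12546 and wild-type arrays 13620 to 14703, without overlap. Of all single tested probe sets, 8.13% had groups that did not overlap, 6.33% were called and 26% had an unadjusted p under 0.05. The sums rest mainly on Ms4a1 and Cd4, with mean log2 values of 12.67 and 12.13 in null arrays. Cd3e and Cd79a were dimmer, at 9.40 and 9.22. All 4 lymphocyte differences were negative (median -0.22) and 3 had an unadjusted p under 0.05 by limma. Cd4 fell by 0.29 on the log2 scale (adjusted p = 0.0421) while Ptprc lay at the floor on every array. The 3 cholangiocyte genes summed to 1834 to 1931 and 1938 to 2368, also without overlap, with Epcam at the floor on every array and 0 called by limma (1 at an unadjusted p under 0.05). Sums overlapped for stellate cells and fibroblasts (8 genes, 12549 to 13235 in null and 12499 to 15732 in wild type), endothelial cells (9 genes, 11878 to 13962 and 11915 to 14407) and red blood cells (3 genes, 22270 to 26985 and 23858 to 26204). They also overlapped for Kupffer cells and macrophages (7 genes, 13649 to 14949 and 14300 to 24236), where wild type 5 read 24236, the other wild-type arrays at most 15346, and Marco lay at the floor on every array. Limma called 0 genes in these 4 lists, with 1, 1, 0 and 1 genes in that order at an unadjusted p under 0.05. The part of these markers in the Igfbp1 result was not tested.

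Igfbp2 encodes a carrier that hepatocytes secrete and that is common in fetal serum. Its probe set 98627_at read 14582, 9695, 9567, 11705 and 7463 in null mice 1 to 5. It read 6089, 3736, 6521, 13769 and 9114 in wild-type mice 1 to 5. The groups overlapped, since wild type 4 was the second highest of all 10 arrays. The means were 10602 ± 2683 and 7846 ± 3822 (SD, n = 5 each), a difference of 0.53 (SE 0.28, 95% interval -0.07 to 1.13) that was not called (limma adjusted p = 0.243, exact permutation p = 0.159). Without wild type 4 the difference was 0.77 and passed the threshold (adjusted p = 0.0449), and without wild type 2 it was 0.30 (adjusted p = 0.465).

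The Igfbp2 values also differed between fluidics runs of the same genotype. Wild-type arrays had a geometric mean of 5294 in run 2 and 11203 in run 3. Null arrays had 11217 in run 1 and 7463, from 1 array, in run 2. With run as a block the difference was 0.50 (adjusted p = 0.480). Within groups, Igfbp2 and Igfbp1 103896_f_at deviated together (r = 0.77 over 10 arrays), and Igfbp2 and Igf1 95546_g_at deviated oppositely (r = -0.72). These correlations are over readings that share arrays and runs, and carry no test.

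Igfbp3 lies next to Igfbp1 and encodes the carrier of the ternary complex, which in rat liver is made mainly by non-parenchymal cells. Its probe set 95082_at read 1001, 949, 1020, 995 and 1012 in null mice and 594, 931, 712, 1007 and 966 in wild-type mice. The null arrays lay within a narrow band, 995 ± 27.7, and the wild-type arrays at 842 ± 179 (SD, n = 5 each), with wild type 4 and 5 inside the null range and wild type 1 to 3 below it. The difference was 0.27 (95% interval -0.03 to 0.57, limma adjusted p = 0.243, exact permutation p = 0.0714). The other probe set, 95083_at, read 630, 563, 464, 418 and 661 in null mice and 375, 411, 388, 509 and 465 in wild-type mice. Null 4 and null 3 fell among the wild-type arrays. Its difference was 0.34 (95% interval 0.03 to 0.65), with an unadjusted p of 0.0354 and an adjusted p of 0.158. Neither probe set was called, and their differences were positive under every alternative run, 24 for the first and 22 for the second. Without wild type 1 the difference of 95082_at was 0.15, and with run as a block the differences were 0.46 for 95082_at and 0.76 for 95083_at, none of them called. Their within-group deviations had r = 0.46 over 10 arrays.

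Igfbp4 encodes a carrier that mostly inhibits IGF action and that the protease PAPP-A cleaves. It had 3 probe sets, and none was called. At 101571_g_at the null mice read 17861, 15967, 15297, 15088 and 15366, and the wild-type mice 16589, 14051, 15214, 16945 and 14635. The ranges lay over each other, and the difference was 0.04 with a 95% interval of -0.11 to 0.19 (adjusted p = 0.747), narrow beside that of Igfbp1 103896_f_at. At 94222_at the null mice read 3808, 3130, 2083, 2297 and 2649 and the wild-type mice 3515, 3010, 3516, 3732 and 3016. Null 3, 4 and 5 were below every wild-type array and null 1 was above all of them, a difference of -0.29 (95% interval -0.60 to 0.02, adjusted p = 0.215). The dim 101570_at read 414, 413, 390, 615 and 570 in null mice and 570, 496, 611, 511 and 491 in wild-type mice, a difference of -0.18 (95% interval -0.49 to 0.13, adjusted p = 0.456). Within groups 101571_g_at and 94222_at deviated together (r = 0.80 over 10 arrays), and 101570_at did not follow them (r = -0.19 and -0.17).

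Igfbp6 encodes a carrier that prefers IGF-II. Its probe set 103904_at read 1448, 1712, 1310, 1323 and 1236 in null mice 1 to 5, and 1542, 1390, 2096, 1902 and 1500 in wild-type mice 1 to 5. Null 3, 4 and 5 lay below every wild-type array, and null 2 lay above 3 of them. The means were 1406 ± 187 and 1686 ± 299 (SD, n = 5 each), a difference of -0.25 (95% interval -0.53 to 0.02, adjusted p = 0.231) that was not called.

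Igfals encodes the acid-labile subunit, which hepatocytes make under growth hormone control and which completes the ternary complex. Its probe set 97987_at read 6054, 5166, 5578, 3516 and 5684 in null mice, and 5144, 4631, 4602, 6628 and 5034 in wild-type mice. Null 4 was the lowest array and wild type 4 the highest, and the other 8 lay between 4602 and 6054. The difference was -0.01 (95% interval -0.32 to 0.29, adjusted p = 0.964), and its sign turned under 8 of 24 alternatives, the deposited scale (0.14) among them.

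Igf1, the hormone itself, had 2 probe sets and neither was called. At 95545_at the null mice read 8238, 7474, 7477, 6645 and 7589 and the wild-type mice 8510, 7946, 8212, 7323 and 7692. At 95546_g_at, whose suffix marks probes shared by a group of sequences, the null mice read 18491, 18653, 19634, 17404 and 19379. The wild-type mice read 19126, 20374, 19475, 18156 and 19580 there. The groups overlapped at both. The differences were -0.09 (95% interval -0.24 to 0.06, adjusted p = 0.457) and -0.05 (-0.17 to 0.07, adjusted p = 0.605). The interval of the second runs from 0.892 to 1.05 times the wild-type level. Its highest reading, 20374 in wild type 2, was 14.3 on the log2 scale. Ahsg, a bright hepatocyte marker, averaged 14.9 in both groups, so 95546_g_at lay near the top of the scale. Whether a rise of the size seen at Igfbp1 103896_f_at could be read there was not tested. Without normalization between arrays the signs turned, at 0.09 and 0.11, and neither was called.

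Genes around these carriers were read from 6 lists of receptors, regulators, targets and proteases. Of 122 listed genes other than the ones above, 86 had a probe set of their own and 76 were tested, each at its brightest probe set. Limma called 2 higher and 1 lower, beside 3.57% and 2.76% of all tested probe sets. At an unadjusted p under 0.05 there were 27, where 26% of all tested probe sets passed. The median difference of the 76 genes was -0.05. The genes named below at the ends of a list were picked out after their values were seen.

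Among 20 tested regulators reported for Igfbp1 transcription, 1 rose and 1 fell, beside 3.57% and 2.76% of all tested probe sets. At an unadjusted p under 0.05 there were 8, beside 26% of all tested probe sets, and the list median was -0.06. Cebpb, a liver transcription factor of the C/EBP family, read 3997 to 5131 in null arrays (median 4512) and 1827 to 3993 in wild-type arrays (median 1923). The groups did not overlap, but the nearest arrays read 3997 and 3993. The log2 rise was 0.93 with an SE of 0.18 (limma adjusted p = 0.0144). The call was lost with no filter (adjusted p = 0.0544) and within run 2 (1.45, with 1 null array). With run as a block, which takes its contrast from the arrays of run 2, the call was kept (1.45, adjusted p = 0.00931). Foxa2, a forkhead factor that opens liver enhancers, read 1053 to 1408 in null arrays and 1520 to 2470 in wild-type arrays, without overlap. It fell by 0.65 (SE 0.14, adjusted p = 0.0181), a call lost under 5 of 24 alternatives. Among them were leaving out null 2 (-0.59, adjusted p = 0.0535), run as a block (-0.58, adjusted p = 0.318) and run 2 alone (-0.58). Foxo3, a FOXO factor, had a difference of 0.38 that was not called (adjusted p = 0.126) but passed without wild type 5 (0.49, adjusted p = 0.0395) and with array weights (0.47, adjusted p = 0.0486). With run as a block and within run 2 it was 0.90 and was not called. Foxo1 had no probe set of its own, and the probe set of Ppargc1a, a coactivator of fasting genes, was too dim to be tested.

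Of 11 tested genes that FOXO1 induces or insulin suppresses in liver, 2 rose and 0 fell. Over all tested probe sets, 3.57% rose and 2.76% fell. The list median was 0.06 and 4 genes had an unadjusted p under 0.05, beside 26% of all tested probe sets. Of the 2 that rose, 1 was Igfbp1 itself. The other, Ccng2, which encodes a cyclin that slows the cell cycle, read 1319 to 2141 in null arrays (median 1448) and 598 to 1273 in wild-type arrays (median 928), without overlap. It rose by 0.87 (SE 0.20, adjusted p = 0.0247), a call lost under 7 of 24 alternatives. Among them were leaving out null 3 (0.75, adjusted p = 0.0505), null 5 (0.89, adjusted p = 0.0530) or wild type 3 (0.75, adjusted p = 0.0599). Run as a block (0.85, adjusted p = 0.321) and run 2 alone (0.85) were also among them. G6pc, the last enzyme of glucose output, had a difference of 0.10 (adjusted p = 0.525). Pdk4, which holds back pyruvate oxidation in fasting, had 0.06 (adjusted p = 0.874), and Irs2, an insulin receptor substrate, had -0.07 (adjusted p = 0.755). None of these was called. Pck1 had no probe set of its own.

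Among 18 tested genes of growth hormone and IGF receptors and signalling, limma called 0 at their brightest probe sets, with 6 at an unadjusted p under 0.05. Over all tested probe sets, 6.33% were called and 26% had an unadjusted p under 0.05. The differences of the 18 genes ran from -0.37 (Grb2, an adaptor) to 0.27 (Ghr), with a median of -0.14. Ghr, the growth hormone receptor, read 6845 to 8443 in null and 5212 to 7120 in wild-type arrays (0.27, adjusted p = 0.0828). It passed on the deposited scale (0.45, adjusted p = 0.0213) and after scaling to the 75th percentile (0.36, adjusted p = 0.0342), and its other probe set gave 0.27 (adjusted p = 0.358). Igf1r, the IGF-I receptor, had -0.28 (adjusted p = 0.112). Igf2r, which clears IGF-II, had 0.26 (adjusted p = 0.192). Stat5b, the main carrier of the growth hormone signal to liver genes, had -0.17 (adjusted p = 0.297). Socs2, its feedback inhibitor, had 0.02 (adjusted p = 0.964). The Socs2 value depended on the floor, since 1 wild-type array read -1357 there and was raised to it. With the floor at the 10th percentile the difference was 0.27. With 16 added before log2 in place of the floor it was 0.92, and neither was called. The probe set of Insr, the insulin receptor, was too dim to be tested. Stat5a had -0.08 (adjusted p = 0.667) at the brighter of its probe sets and -0.41 at another, which was called lower (adjusted p = 0.0385) and was picked out after its value was seen.

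The remaining lists are read beside the 6.33% of all tested probe sets that were called and the 26% with an unadjusted p under 0.05. The 12 tested growth hormone responsive liver genes had 0 calls by limma, 5 at an unadjusted p under 0.05 and a median of 0.02. Their ends were Onecut1, a hepatocyte transcription factor, at -0.89 (adjusted p = 0.117) and Hsd3b5, a male-biased steroid enzyme, at 1.44 (adjusted p = 0.174). Hsd3b5 read 463 to 5715 in null and 295 to 2957 in wild-type arrays, so mice of 1 genotype differed widely. The list of proteases reported to cut IGF binding proteins had 17 tested genes, among them Stc2, which is not itself a protease. This list had 0 calls by limma, 5 genes at an unadjusted p under 0.05 and a median of -0.06. Its differences ran from Mmp7, a matrix metalloprotease, at -1.08 (adjusted p = 0.110) to Klkb1, plasma kallikrein, at 0.40 (adjusted p = 0.140). Mmp7 lay at the floor on 3 null arrays. The 4 tested IGFBP-related and CCN genes had 0 calls, 1 at an unadjusted p under 0.05 and a median of -0.04. Igfbp7 had no probe set of its own, and the 1 probe set of Ccn2, also called Ctgf, was not among those tested.

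**Figure D5:**
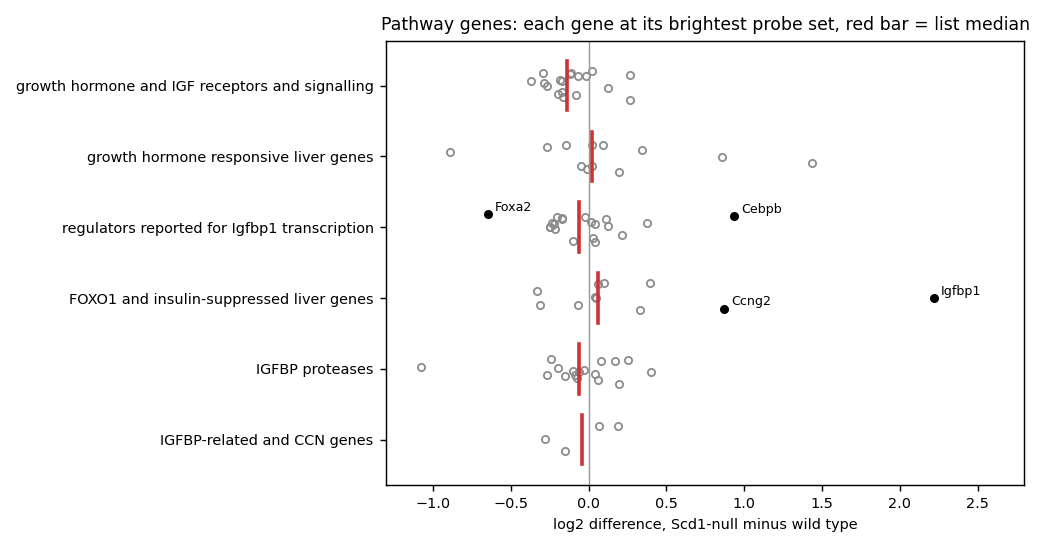
Log2 difference of Scd1-null minus wild type for the tested genes of the 6 lists, 1 point per gene at its brightest probe set, with filled named points for calls and a red bar at each list's median. The list medians lie between -0.14 and 0.06, and Igfbp1, Cebpb, Ccng2 and Foxa2 are the called points.

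The genes whose readings were most like those of Igfbp1 103896_f_at were found from the correlation of deviations from the group means over the 10 arrays. They were Kcna1 (r = 0.96), Inpp5a (0.92), Clcn1 (0.92), H2-T24 (0.91) and Cltb (0.91). Without wild type 2, the lowest Igfbp1 array, 0 of these 5 were among the nearest 5. For Igf1 95546_g_at the nearest were Ndp (r = 0.96), Mrpl33 (0.89), Rlbp1 (0.89), Mtmr7 (0.89) and Rcor1 (0.86), of which leaving out 1 array kept 0 to 4. These orders describe the 10 arrays only.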

How the data were processed

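Liver RNA of 10 mice was read on Affymetrix MG_U74A arrays, 1-colour oligonucleotide chips, 1 array per mouse. The authors deposited linear intensity values for 10043 probe sets, of which 1.19% lay below 0; the sources used here do not give how probes were summarised or scaled. The deposited settings files, per the file headers, gave the chip type, lot and hybridisation times, and a new fluidics run was counted after a gap of over 60 minutes. With 2% trimmed from each end, array means spread over 19.8%, and intensities were therefore quantile normalized after 66 control probe sets were left out. They were floored at the 25th percentile (351) and taken to log2. Probe sets above the floor on at least 5 of 10 arrays were kept, 7569 in all, and 2408 were left out. Differences near the floor are understated.

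The genotype contrast was fitted in R 4.3.3 by limma 3.58.1 (lmFit, then trended eBayes), with Benjamini-Hochberg adjustment over all kept probe sets. Single values were tested by exact permutation over 252 assignments. All tests were two-sided. Arrays give no counting depth, and their number sets the precision, with a median residual SD of 0.18 on log2 values. The procedure was tested on simulated data that held no lot or run differences, so that test cannot speak to them. Symbols came from the platform annotation, with 8724 probe sets of 1 symbol, 8710 of which matched a RefSeq gene table by gene ID. No genome build is named in the array files, and coordinates belong to RefSeq windows only. Python 3.11.15 with pandas 2.3.3 and matplotlib 3.10.9 drew the figures.

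The members and lists were chosen with earlier results of these data known. The genes named were all members, Scd1, every called list gene, a fixed set of regulators and targets whether called or not, and the 5 genes nearest to Igfbp1 and to Igf1. The genes at the ends of the lists, Stc2, the second Stat5a probe set and the markers named singly were added after their values were seen. Alternatives were other scalings (none, the 75th percentile, cyclic loess), other floors and filters, other moderation, array weights, averaging the probe sets of a gene, the replicate number or the run as a block, and each array left out, with normalization and kept probe sets as for all 10 arrays.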

Additional observations from a re-analysis of the deposited data

How the results depend on the processing

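The higher call of Igfbp1 103896_f_at held in 22 of 24 alternatives and ended with run as a block (2.32, adjusted p = 0.0787) and within run 2 (2.32, adjusted p = 0.275). Without 1 array at a time the value ran from 1.85 to 2.46. The lower call of 103897_r_at ended on the deposited scale (-0.44), under cyclic loess (-0.48), with the floor at the 10th percentile, no filter or no trend (all -0.50), with run as a block and within run 2 (both -0.71), and in 7 of 10 fits without 1 array. It held without null 3, wild type 2 or wild type 4, and over the 10 fits the value ran from -0.57 to -0.40 (adjusted p up to 0.109). Where it ended, the count of these probe sets called lower was 0, and it ran from 0 to 1 without 1 array. The count called higher was 0 with run as a block and within run 2 (2 at an unadjusted p under 0.05 each by limma) and 1 to 2 without 1 array, the 2 without wild type 4. The ratio of the Igfbp1 probe sets was 3.03 with run as a block and within run 2 (exact permutation p = 0.25, the smallest that 1 array against 3 allows) and 2.42 to 2.92 without 1 array.

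The replicate numbers of the titles did not pair the arrays: deviations of same-numbered arrays correlated at -0.127 to 0.108, 1 of 5 pairs above 0.1, and 1 of 10 arrays correlated best with its own number. With the replicate number as a block, the whole table had 151 higher and 68 lower calls, the pathway genes 1 and 0 (15 lower at an unadjusted p under 0.05), and the 12 probe sets 0 lower. Under that block 103897_r_at stayed at -0.50 (adjusted p = 0.0521), and the ratio at 2.71 (exact permutation p = 0.0625, the smallest that 5 pairs allow).

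Calls over the whole table, 270 higher and 209 lower, were 480 and 96 on the deposited scale, 517 and 497 with array weights, 7 and 7 with run as a block, 0 (671 at an unadjusted p under 0.05) and 1 within run 2, 102 to 491 and 62 to 449 without 1 array, and 152 higher with no filter. Among the fits without 1 array, the most calls came without wild type 4 and the fewest without null 2. After scaling to the 75th percentile, 311 of 7564 probe sets were called higher over the whole table. The deposited scale had 7561 tested probe sets and array weights 7569. Tested pathway genes numbered 76 as reported, 75 on the deposited scale, 86 with no filter and 58 with the filter at the median. Pathway genes called higher, 2 as reported, were 6 on the deposited scale, 4 after scaling to the 75th percentile, 6 with array weights, 1 with run as a block, 0 within run 2 (6 at an unadjusted p under 0.05), 0 with no filter (10) and 1 to 5 without 1 array. Those called lower, 1 as reported, were 2 with the filter at the median, 5 with array weights, 0 with no filter (15 at an unadjusted p under 0.05), 0 with run as a block and within run 2 (9 each) and 0 to 6 without 1 array.

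Signs turned only in values that were not called. Igfals was 0.14 on the deposited scale, 0.056 after scaling to the 75th percentile, 0.0038 under cyclic loess, 0.043 with array weights, 0.25 with run as a block and within run 2, and -0.075 to 0.12 without 1 array. The Igf1 probe sets were 0.094 and 0.11 on the deposited scale and 0.0051 and 0.023 after scaling to the 75th percentile. Igfbp4 101570_at was 0.034 with run as a block and within run 2, and 101571_g_at ran from -0.0019 to 0.074 without 1 array. Irs2 was 0.0023 on the deposited scale and -0.17 to 0.00093 without 1 array. Socs2 was -0.042 after scaling to the 75th percentile, -0.13 with the floor at the 40th percentile and for both run settings, -0.090 with array weights and -0.18 to 0.23 without 1 array. Pdk4 was -0.41 for both run settings and -0.065 to 0.23 without 1 array. The cause of these changes was not tested.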
